A study of Rattus norvegicus with 10 samples.

Results

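The cell cycle genes examined here were 40 genes of DNA replication and cell division, 20 that act in replication and S phase and 20 that act in G2 and mitosis. They were chosen by name, with earlier results of these data known, and every non-control probe whose transcript belonged to one of them was taken. Of the 40 genes, 37 had a probe, 19 for replication and 18 for mitosis, out of 15245 named genes on the array. These genes were covered by 46 of 30367 probes, and all 37 passed the filter on dim probes in each comparison. No probe could be assigned to Mki67, Top2a or Mcm5, so these 3 genes were not measured here. Bub1b was named through a table of the study, and the other members through their transcript accession.

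PCCl3 is an established rat cell line from thyroid follicular epithelium that keeps expressing thyroid genes in culture. All cultures were grown in medium with 5% donor calf serum and hormones that included 1 nM TSH, the pituitary hormone that drives thyroid function and growth. Cells were left as wild type (wt), transfected with 25 nM of a non-targeting siRNA pool (siScramble) or transfected with 25 nM of an siRNA pool against FoxE1, a forkhead transcription factor of the thyroid (siFoxE1), and RNA was taken after 48 h. There were 4 cultures per condition, numbered 1 to 4, which the study describes as biological replicates. Of 10 Agilent rat arrays with 2 dyes, 8 held siFoxE1 in Cy5 against the wt or the siScramble culture of the same number in Cy3, and the other 2 were dye swaps made from pooled RNA. The same siFoxE1 extract was used on both arrays of a number. The wt cells did not go through transfection, and no source states whether cultures that share a number were seeded, passaged or harvested together.

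In dividing cells, E2F factors turn on the replication genes as cells leave G1 and enter S phase, among them the MCM helicase subunits, the enzymes that make deoxynucleotides and the cyclins E. The genes of G2 and mitosis, such as the cyclins A and B, Cdk1, Plk1 and the Aurora kinases, are switched on later, through the MuvB complex with B-Myb and FoxM1 at a promoter element called the cell cycle homology region. In thyroid follicular cells both programmes run when TSH, insulin and serum drive proliferation. On arrays of whole cultures, a lower share of dividing cells and less of a transcript per dividing cell cannot be told apart.

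The promoters of the members were searched for the motifs of these programmes. RefSeq promoters of build GRCr8, each with 250 bases before and 50 after the start, were found for 31 of the 40 genes, 15 for replication and 16 for mitosis. An E2F motif was counted where the promoter held, on either strand, the letters TTCGCGC, where it held the variant form TTGGCGC, where it held the further form TTCCCGC, or where it held the form spelled TTGCCGC. It was in 11 of 15 replication promoters (73.3%) and in 3 of 16 mitosis promoters (18.8%), against 9.52% of all 33469 promoters. A cell cycle homology region, counted on either strand as the letters TTTGAA or as the variant form TTCGAA, was in 3 of 15 replication promoters (20%) and in 11 of 16 mitosis promoters (68.8%), against 19.7% of all promoters. A CCAAT box (CCAAT on either strand) was in 9 of 15 replication promoters (60%) and in 13 of 16 mitosis promoters (81.2%), against 37.5% of all promoters. The palindromic TTCGCGCGAA holds 2 overlapping E2F matches, and an E2F match can overlap a CCAAT box. A match of these letters is a description of the sequence and not a sign of binding.

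The 100 bases upstream of the start are shown for 4 replication genes that held an E2F match there, with the matches to any of the 3 motifs in capitals. They lie in GRCr8 with Mcm2 at chr4:122918095-122918194 on the minus strand, Mcm7 at chr12:22163179-22163278 on the minus strand, Tyms at chr9:120776084-120776183 on the minus strand and Rfc4 at chr11:91254173-91254272 on the plus strand. Mcm2 and Mcm7 encode helicase subunits, Tyms makes thymidylate and Rfc4 is part of the clamp loader.
Mcm2: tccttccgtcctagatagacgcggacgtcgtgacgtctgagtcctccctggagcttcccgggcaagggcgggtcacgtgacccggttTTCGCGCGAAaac
Mcm7: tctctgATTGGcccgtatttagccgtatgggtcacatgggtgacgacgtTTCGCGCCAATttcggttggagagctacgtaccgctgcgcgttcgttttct
Tyms: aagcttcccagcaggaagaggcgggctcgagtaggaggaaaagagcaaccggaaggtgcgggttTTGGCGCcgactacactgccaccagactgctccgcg
Rfc4: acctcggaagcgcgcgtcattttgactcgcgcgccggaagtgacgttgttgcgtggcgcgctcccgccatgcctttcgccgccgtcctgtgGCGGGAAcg

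The same stretch is shown for 4 mitosis genes that held the TTTGAA element there, with the same 3 motifs in capitals. They lie in GRCr8 with Cdk1 at chr20:19265193-19265292 on the plus strand, Ccnb2 at chr8:79981659-79981758 on the minus strand, Cdc20 at chr5:137255800-137255899 on the minus strand and Birc5 at chr10:103572046-103572145 on the plus strand. Cdk1 is the kinase of mitotic entry and Ccnb2 one of its cyclins, Cdc20 activates the anaphase-promoting complex, and Birc5 is survivin, of the chromosomal passenger complex.
Cdk1: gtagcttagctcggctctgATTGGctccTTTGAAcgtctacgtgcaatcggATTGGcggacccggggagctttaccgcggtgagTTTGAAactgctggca
Ccnb2: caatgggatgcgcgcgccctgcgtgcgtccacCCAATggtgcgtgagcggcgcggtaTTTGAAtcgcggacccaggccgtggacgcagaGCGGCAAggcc
Cdc20: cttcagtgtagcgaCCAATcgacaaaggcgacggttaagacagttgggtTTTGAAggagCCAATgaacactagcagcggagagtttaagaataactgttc
Birc5: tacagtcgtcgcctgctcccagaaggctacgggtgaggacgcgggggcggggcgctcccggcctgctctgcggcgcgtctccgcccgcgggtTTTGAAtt

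Tk1, thymidine kinase, is shown as the member with the widest span between cultures, at chr10:103544778-103544877 on the minus strand. None of the 3 motifs was found in its 300-base window.
Tk1: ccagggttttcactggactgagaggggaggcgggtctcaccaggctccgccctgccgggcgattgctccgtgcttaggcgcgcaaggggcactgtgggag

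The arrays were alike in signal. Between 56.8 and 60.3% of spots were well above background in Cy5 and between 60.6 and 68.2% in Cy3, and saturated spots were absent. Foxe1, the silenced gene, was lower in siFoxE1 on all 10 arrays, with a log2 fold change of -0.80 vs siScramble (adjusted p = 0.0228) and of -0.86 vs wt (adjusted p = 0.0333, both from limma). Without number 1 its adjusted p was 0.0541 vs siScramble and 0.236 vs wt, and without number 4 it was 0.234 vs wt. The thyroid markers Tg, Slc5a5, Tshr, Pax8, Nkx2-1 and Foxe1 were well above background in all 16 channels of the individual arrays. Of 6 fibroblast markers, Dcn and Lum were above background in no channel, Col3a1 in 1, and Col1a1, Col1a2 and Pdgfra in all, at log2 intensities of 6.63 to 8.30. Of the leukocyte markers described here, Ptprc and Itgam were above background in no channel, Cd3e in 1, Adgre1 in 6 and Csf1r in all 16, at 6.36 to 7.01. Slide 2 held siScramble array 3 and the siScramble pool, and slide 1 held the other 8 arrays. Number 3 stood apart. The deviation of wt culture 3 from the wt mean correlated with that of siScramble culture 3 at r = 0.11 across probes, against 0.68 to 0.78 for the other 3 numbers. The highest correlation of number 3, from either condition, with another number was 0.41. These correlations cannot tell whether the wt or the siScramble value of number 3 was the unusual one.

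In every condition the list means of both the replication and the mitosis genes were highest in culture 2 and lowest in culture 1. The mean log2 intensity of the 19 replication genes was 8.95, 10.01, 9.27 and 9.24 in wt cultures 1 to 4, 8.77, 10.09, 9.63 and 9.15 in siScramble cultures 1 to 4, and 8.52, 10.10, 9.81 and 9.27 in siFoxE1 cultures 1 to 4. For the 18 mitosis genes it was 9.15, 10.57, 9.47 and 9.67 in wt, 9.42, 10.59, 10.17 and 9.83 in siScramble, and 8.98, 10.62, 10.33 and 9.83 in siFoxE1. The span between the highest and the lowest culture was 1.06 in wt, 1.32 in siScramble and 1.57 in siFoxE1 for replication genes, and 1.42, 1.16 and 1.64 in the same order for mitosis genes. Markers of cell type moved with the number too. The mean of the 6 thyroid markers Tg, Slc5a5, Tshr, Pax8, Nkx2-1 and Foxe1 was highest in culture 2 in each condition. It was 12.95 in wt, 12.80 in siScramble and 12.61 in siFoxE1, against 12.09 to 12.55 in the other cultures. All 6 differed by number (median span 0.68), where 60.2% of all genes did (median span 0.37). The mean of the 3 fibroblast markers tested, Col1a1, Col1a2 and Pdgfra, was highest in culture 1 in each condition, at 7.52, 7.53 and 7.64 against 7.25 to 7.38 in the other cultures, and Pdgfra alone differed by number. Their part in the levels of the cell cycle genes was not tested. On the linear scale the spans of the cell cycle genes were 2.08- to 2.98-fold for replication and 2.24- to 3.11-fold for mitosis. When the same siFoxE1 extract was hybridized to both of its arrays, list means differed by at most 0.03 in size, and the median difference over single members was 0.03 to 0.05.

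**Figure D1:**
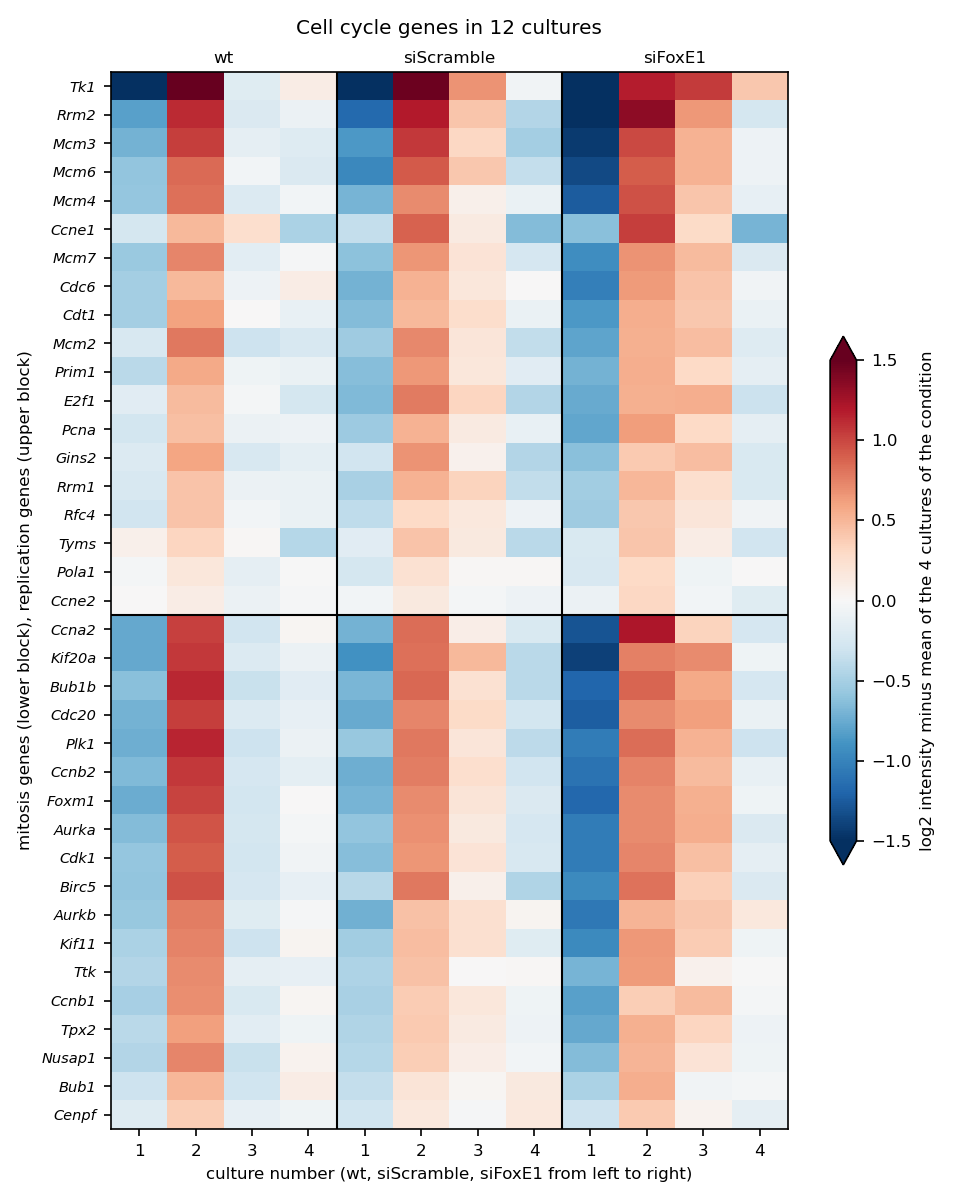
Heat map of the 37 measured cell cycle genes (rows, replication above and mitosis below, ordered by span) in the 12 cultures (columns, numbers 1 to 4 in wt, siScramble and siFoxE1). Colour gives the log2 intensity minus the mean of the 4 cultures of the condition, clipped at 1.5, and in every condition the column of culture 2 is red and that of culture 1 mostly blue.

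Tested one by one, all 37 members differed between culture numbers (limma F-test on 12 culture values with condition as a term and 6 residual degrees of freedom, adjusted p from 0.000357 to 0.037). Of all 9559 genes tested the share called was 60.2% (66.9% at an unadjusted p under 0.05), so that being called sets the members little apart. The size of the difference was the measure in which they stood out, though the lists were chosen with earlier results of these data known. The span over the means of the 4 numbers had a median of 1.20 for replication and of 1.51 for mitosis genes, against 0.37 for all genes. It was above 1 in 29 of 37 members (78.4%), 13 of 19 replication and 16 of 18 mitosis genes, against 763 of 9559 genes (7.98%). Members and all genes were not matched for brightness here, and dimmer second probes of members gave smaller spans, such as 1.52 against 2.45 for Rrm2. Since siScramble and siFoxE1 values of a number come partly from a shared array, the test was also run on wt and siScramble values alone, which were never on the same array. It then called 34 of 37 members and 43.8% of all genes, with median spans of 1.12 and 1.39. Without culture 1 of each condition 33 members and 35.0% of all genes were called, and the median spans were 0.83 and 0.91. Without culture 2 it was 31 members and 34.4% of all genes, with spans of 0.81 and 0.89. Without the wt value of number 3, all 37 members and 63.4% of all genes were called.

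**Figure D2:**
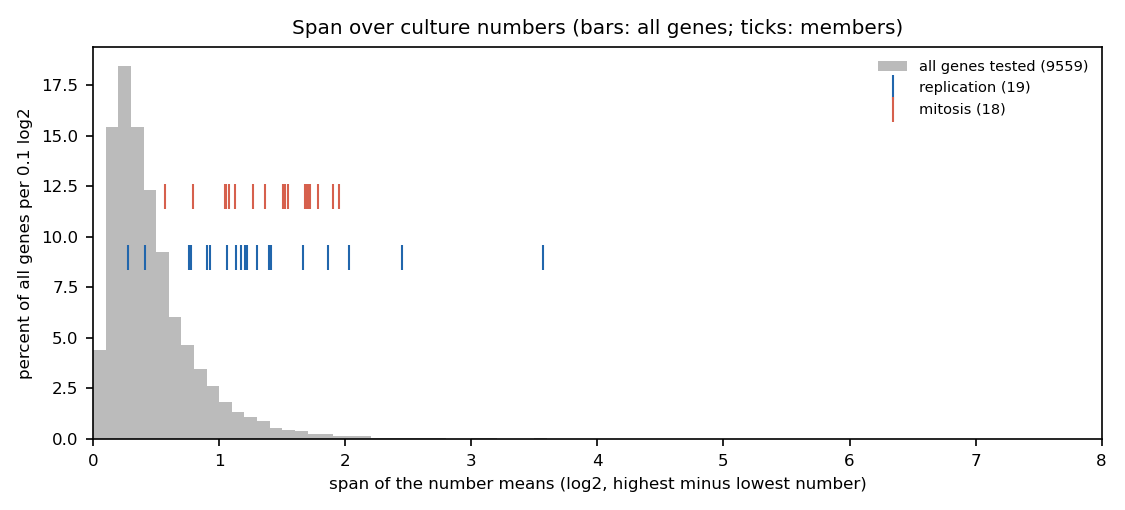
Span of the number means on the log2 scale (horizontal axis) as a histogram over all 9559 genes tested (grey bars, percent of genes per 0.1) and as ticks for the 19 replication (blue) and 18 mitosis (red) genes, whose height has no meaning. Most ticks lie to the right of the bulk of the genes, with Tk1 at 3.57.

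Among the replication genes the widest span was that of Tk1, which salvages thymidine for DNA synthesis. Its log2 intensity was 8.89, 12.22, 10.34 and 10.63 in wt cultures 1 to 4, 8.62, 12.17, 11.39 and 10.65 in siScramble cultures 1 to 4 and 8.13, 11.96, 11.82 and 11.18 in siFoxE1 cultures 1 to 4. Culture 2 was highest and culture 1 lowest in each condition, and the span of 3.57 between number means, 11.9-fold, compares with a residual SD of 0.40 (adjusted p = 0.000357). The log2 span was 2.45 for Rrm2, the small subunit of ribonucleotide reductase, and 2.03 for the helicase subunit Mcm3. Prim1, the primase, was at 9.91, 10.88, 10.24 and 10.21 in wt cultures 1 to 4, 9.71, 11.01, 10.53 and 10.18 in siScramble cultures 1 to 4 and 9.62, 10.87, 10.63 and 10.20 in siFoxE1 cultures 1 to 4. Its 3 values of culture 2, 10.87 to 11.01, did not overlap those of any other number. Tk1, Prim1 and Cdt1 are shown for their small p for number, which favours such a gap. The share of all genes with such a gap was not counted, here or for the genes below. Cdt1, which loads the MCM helicase, was at 7.09, 8.21, 7.60 and 7.49 in wt cultures 1 to 4, 7.02, 8.15, 7.94 and 7.57 in siScramble cultures 1 to 4 and 6.88, 8.28, 8.14 and 7.64 in siFoxE1 cultures 1 to 4. The lowest value of culture 2, 8.15, lay just above siFoxE1 culture 3 at 8.14, a gap smaller than the residual SD of 0.14.

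Pcna, the sliding clamp, was at 10.99, 11.71, 11.18 and 11.18 in wt cultures 1 to 4, 10.70, 11.76, 11.37 and 11.13 in siScramble cultures 1 to 4 and 10.42, 11.82, 11.50 and 11.06 in siFoxE1 cultures 1 to 4. All 3 values of culture 2 were above all others, and the span was 1.06 with a residual SD of 0.16. Mcm2 was at 9.85, 10.89, 9.79 and 9.86 in wt cultures 1 to 4, 9.65, 10.90, 10.35 and 9.81 in siScramble cultures 1 to 4 and 9.50, 10.83, 10.76 and 10.10 in siFoxE1 cultures 1 to 4. Here siFoxE1 culture 3 lay close to culture 2 whereas wt culture 3 was the lowest wt value. E2f1, itself an E2F target, was at 9.39, 10.04, 9.53 and 9.29 in wt cultures 1 to 4, 8.79, 10.24, 9.78 and 9.01 in siScramble cultures 1 to 4 and 8.79, 10.09, 10.10 and 9.22 in siFoxE1 cultures 1 to 4. It was lowest in culture 4 in wt and in culture 1 after either siRNA. Ccne1, cyclin E1 of the G1/S transition, was at 9.70, 10.45, 10.22 and 9.49 in wt cultures 1 to 4, 9.61, 10.86, 10.10 and 9.32 in siScramble cultures 1 to 4 and 9.08, 10.75, 10.00 and 9.02 in siFoxE1 cultures 1 to 4. It was highest in culture 2 in each condition but lowest in culture 4, unlike most members. Ccne2 and Pola1 were dim, well above background in 3 of 8 siFoxE1 and 3 of 4 siScramble channels, and had the smallest spans, 0.28 and 0.41.

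Plk1, polo-like kinase of mitotic entry and cytokinesis, was at 11.00, 12.88, 11.43 and 11.64 in wt cultures 1 to 4, 11.61, 12.96, 12.36 and 11.78 in siScramble cultures 1 to 4 and 10.75, 12.63, 12.31 and 11.49 in siFoxE1 cultures 1 to 4. Culture 2 was highest and culture 1 lowest in each condition, and the span over numbers was 1.70 with a residual SD of 0.25. Ccna2, cyclin A2, was at 9.69, 11.49, 10.17 and 10.49 in wt cultures 1 to 4, 10.10, 11.65, 10.91 and 10.58 in siScramble cultures 1 to 4 and 9.55, 12.05, 11.18 and 10.59 in siFoxE1 cultures 1 to 4. Its span of 1.95, 3.86-fold, was the widest of the mitosis genes. Ccnb2 was at 8.70, 10.43, 9.11 and 9.22 in wt cultures 1 to 4, 8.84, 10.34, 9.82 and 9.28 in siScramble cultures 1 to 4 and 8.28, 10.12, 9.86 and 9.26 in siFoxE1 cultures 1 to 4. Ttk, the spindle checkpoint kinase Mps1, was at 8.57, 9.71, 8.86 and 8.87 in wt cultures 1 to 4, 8.78, 9.69, 9.25 and 9.26 in siScramble cultures 1 to 4 and 8.54, 9.87, 9.30 and 9.22 in siFoxE1 cultures 1 to 4. In both genes all 3 values of culture 2 exceeded all 9 others. Both were picked, like Ccna2, for a small p for number. Ccnb1, cyclin B1, was at 9.57, 10.77, 9.85 and 10.10 in wt cultures 1 to 4, 9.93, 10.80, 10.59 and 10.35 in siScramble cultures 1 to 4 and 9.48, 10.65, 10.76 and 10.26 in siFoxE1 cultures 1 to 4. It was the mitosis gene whose siFoxE1 value was highest in culture 3 rather than 2. Aurkb, the kinase of the chromosomal passenger complex, was at 7.77, 9.11, 8.16 and 8.33 in wt cultures 1 to 4, 7.93, 9.09, 8.89 and 8.69 in siScramble cultures 1 to 4 and 7.79, 9.38, 9.27 and 9.03 in siFoxE1 cultures 1 to 4. Cenpf had the smallest span of the mitosis genes, 0.57.

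The remaining members are given by their log2 span over the number means. Of the helicase, Mcm4 had 1.67, Mcm6 1.87 and Mcm7 1.39, and Gins2, of the GINS complex that joins it, 0.93. Of nucleotide synthesis, Rrm1, the large subunit of ribonucleotide reductase, had 0.90 and Tyms 0.76. Of origin licensing and fork assembly, Cdc6 had 1.30 and Rfc4 0.77. In mitosis, Cdk1 had 1.52 and its transcriptional regulator Foxm1 1.68. The spindle checkpoint genes Bub1 and Bub1b had 0.79 and 1.79, and Cdc20 1.72. The motor proteins Kif11 and Kif20a had 1.27 and 1.90. The spindle genes Aurka, Tpx2 and Nusap1 had 1.54, 1.05 and 1.04, and Birc5 1.51. All of these passed the number test, as did 60.2% of all genes tested.

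Counted over members, 17 of 19 replication and 16 of 18 mitosis genes were highest in culture 2 in all 3 conditions. The exceptions were Gins2, E2f1 and Ccnb1, highest in siFoxE1 culture 3, and Cenpf, highest in siScramble culture 4. Culture 1 was lowest in all 3 conditions for 17 of 18 mitosis genes, all but Birc5, and for 12 of 19 replication genes. Tyms and Ccne1 were lowest in culture 4 in every condition. The share of all genes with the same order of cultures was not counted, so that these counts do not set the members apart.

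S phase and mitosis genes were then set against each other. The deviation of the mitosis mean from its condition mean differed from that of the replication mean by -0.15, 0.21, -0.15 and 0.08 in wt cultures 1 to 4, by 0.06, -0.09, -0.05 and 0.08 in siScramble and by -0.06, 0.00, 0.00 and 0.05 in siFoxE1. In siFoxE1 cultures both lists thus deviated by nearly the same amount, with each siFoxE1 level averaged over both of its arrays. In wt the mitosis genes spanned more than the replication genes (1.42 against 1.06), and in siScramble less (1.16 against 1.32). The differences between the deviations have 1 culture each and were not tested. All of them were smaller than the spans within each list.

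**Figure D3:**
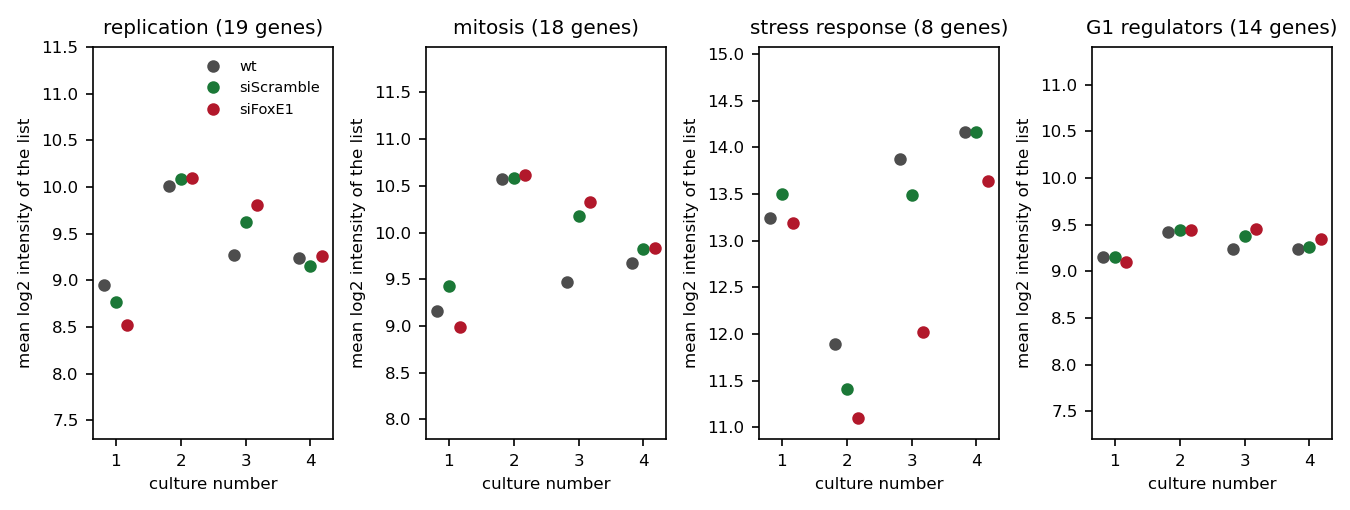
Mean log2 intensity of each list (vertical axis, equal range in all panels) by culture number, 1 point per culture, in wt (grey), siScramble (green) and siFoxE1 (red). Replication and mitosis genes are highest in culture 2 and lowest in culture 1, the 8 stress genes are lowest in culture 2, and the 14 G1 regulators stay within 9.10 to 9.46.

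Other genes of the cell cycle, from lists of related genes, gave the following. Of 18 tested other replication genes all 18 differed by number, with a median span of 1.03. Of 19 tested other mitosis genes all 19 did, with a median of 1.13. Among all genes tested, 60.2% differed by number and the median span was 0.37. Zwint, a kinetochore protein, ran the other way, with levels of 13.44, 12.76, 13.14 and 13.15 in wt cultures 1 to 4, 13.24, 12.69, 12.75 and 13.07 in siScramble cultures 1 to 4 and 13.19, 12.63, 12.14 and 12.59 in siFoxE1 cultures 1 to 4. It was the gene of this list that was highest in culture 1 in each condition, and it was picked out after its values were seen. Of 14 tested G1 regulators 11 differed (78.6%), with a median span of 0.50. Ccnd1, cyclin D1, was at 12.39, 12.44, 12.53 and 12.51 in wt cultures 1 to 4, 12.43, 12.44, 12.70 and 12.57 in siScramble cultures 1 to 4 and 12.56, 12.76, 13.13 and 12.97 in siFoxE1 cultures 1 to 4. Its span was 0.33 (adjusted p = 0.0277), below the median of all genes. Myc was at 9.88, 10.02, 10.37 and 11.04 in wt cultures 1 to 4, 10.25, 9.68, 10.65 and 11.45 in siScramble cultures 1 to 4 and 10.01, 9.25, 10.34 and 11.47 in siFoxE1 cultures 1 to 4. Myc was highest in culture 4 in each condition and did not share the order of the members.

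Of 11 genes of Cdk inhibition and arrest, 5 differed by number (45.5%, against 60.2% of all genes). Cdkn1a, the inhibitor p21, was at 13.87, 13.16, 13.82 and 13.86 in wt cultures 1 to 4, 13.60, 13.74, 13.59 and 13.44 in siScramble cultures 1 to 4 and 13.58, 13.13, 13.63 and 13.57 in siFoxE1 cultures 1 to 4. Its span of 0.34 did not pass the test (adjusted p = 0.209). Cdkn1b, p27, lay between 9.39 and 10.08 in the 12 cultures (span 0.22, adjusted p = 0.276), and the dim Cdkn1c between 6.16 and 6.59 (span 0.23, adjusted p = 0.0595). The 8 genes of the unfolded protein and integrated stress response all differed by number, with a median span of 2.84. Their mean was lowest in culture 2 in each condition, at 11.89 in wt, 11.42 in siScramble and 11.10 in siFoxE1, and highest in culture 4, at 14.17, 14.16 and 13.64. The part of these differences in the levels of the cell cycle genes was not tested.

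Between siFoxE1 and siScramble no cell cycle gene passed the test. None of the 37 members passed (limma, adjusted p of at least 0.266), against 0.143% of 9807 genes (0.0612% higher and 0.0816% lower), and 2 members had an unadjusted p under 0.05, against 16.5% of genes. The log2 fold change had a median of 0.08 for replication genes, 14 of 19 above 0, and of -0.02 for mitosis genes, 8 of 18 above 0. For all genes the median was 0.00, with 4924 of 9807 above 0. The largest change of a replication gene was that of Ccne1. Its log2 ratio of siFoxE1 over siScramble was -0.53, -0.06, -0.16 and -0.30 on arrays 1 to 4 and -0.35 on the pooled array. All 5 were below 0, and the fit gave -0.31 (standard error 0.09, adjusted p = 0.266). Among mitosis genes it was Aurkb, with -0.11, 0.25, 0.42 and 0.38 on arrays 1 to 4 and 0.40 on the pooled array. Array 1 stood on the other side of 0, and the fit gave 0.32 (standard error 0.105, adjusted p = 0.285). With the dye as a term, the pooled array weighs as much in this fit as the mean of the 4 individual arrays.

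Against wt the members leaned upwards without passing the test. None of 37 passed (limma, adjusted p of at least 0.234), against 0.0301% of 9972 genes, and 2 had an unadjusted p under 0.05, against 21.1%. The median log2 fold change was 0.09 for replication genes, 16 of 19 above 0, and 0.26 for mitosis genes, 17 of 18 above 0, against -0.00 for all genes, of which 4921 of 9972 were above 0. Without individual array 3 the median of the mitosis genes was 0.15, with the pooled array, a mix of the cultures, kept in the fit. By array, their median was -0.13, -0.02 and 0.13 on arrays 1, 2 and 4 and 0.29 on the pooled array. Aurkb was the largest, with log2 ratios of siFoxE1 over wt of -0.01, 0.31, 1.07 and 0.65 on arrays 1 to 4 and 0.81 on the pooled array. Only array 1 was not above 0, and the fit gave 0.65, 1.57-fold (standard error 0.19, adjusted p = 0.234). With the culture number as a block it passed (0.63, adjusted p = 0.0231), the single member to do so, where 10.6% of all genes passed. Of the replication genes Tk1 was the largest, with -0.77, -0.23, 1.51 and 0.57 on arrays 1 to 4 and 0.57 on the pooled array. These values lay on both sides of 0, and the fit gave 0.42 (standard error 0.38, adjusted p = 0.586). Both comparisons use the same siFoxE1 extracts, so that they are not independent.

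**Figure D4:**
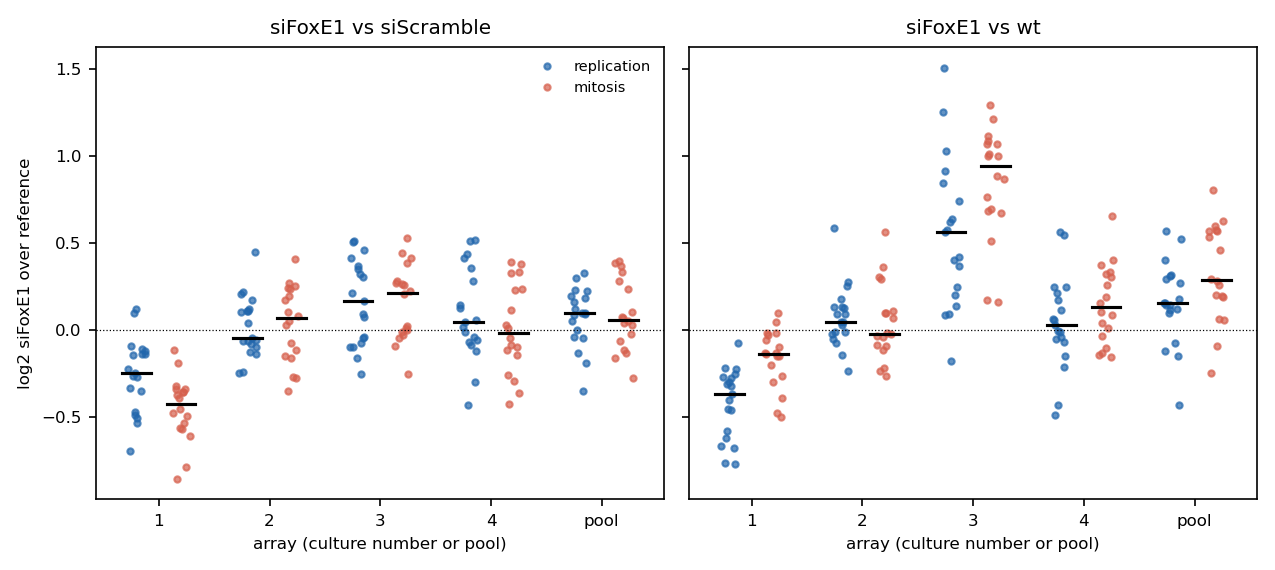
Log2 ratio of siFoxE1 over reference (vertical axis) of each replication (blue) and mitosis (red) gene on the 4 individual arrays and the pool, in siFoxE1 vs siScramble (left) and vs wt (right), with black bars at the medians. The medians of array 1 lie below 0 in both panels, and array 3 vs wt stands highest, with all 18 mitosis genes above 0.

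Array by array, most members lay below the reference on array 1 and most lay above it on array 3, while arrays 2 and 4 were mixed. On array 1 vs wt the median was -0.36 for replication genes, 0 of 19 above 0, and -0.13 for mitosis genes, 2 of 18 above 0, against 4592 of 9972 genes. On array 1 vs siScramble it was -0.24 for replication genes, 2 of 19 above 0, and -0.42 for mitosis genes, 0 of 18 above 0, against 4741 of 9807 genes. On array 3 vs wt all 18 mitosis genes and 18 of 19 replication genes were above 0, with medians of 0.94 and 0.56, all but Ccne1. On array 3 vs siScramble the medians were 0.22 and 0.17, with 12 of 18 and 12 of 19 above 0. On array 2 the medians were -0.02 for mitosis (8 of 18 above 0) and 0.05 for replication (12 of 19) vs wt, and 0.07 (11 of 18) and -0.04 (9 of 19) vs siScramble. On array 4 they were 0.13 (13 of 18) and 0.03 (10 of 19) vs wt, and -0.02 (9 of 18) and 0.05 (11 of 19) vs siScramble. Of all 9972 genes vs wt, 4556, 4920 and 4843 were above 0 on arrays 2, 3 and 4. Of all 9807 genes vs siScramble, 4441, 4918 and 5015 were. The pooled arrays gave 0.29 and 0.15 vs wt, and 0.06 and 0.10 vs siScramble. Plk1, the largest in the indirect comparison, had log2 ratios over wt of -0.26, -0.23, 0.89 and -0.15 on arrays 1 to 4 and 0.57 on the pooled array. It was below wt on 3 individual arrays and above on array 3, and on array 4 it was the lowest of the mitosis genes. With 1 culture of each condition per number, the dependence of the ratio on the number was not tested.

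Since wt and siScramble were never on the same array, the effect of the non-targeting siRNA was seen only indirectly, as the difference of both comparisons. None of 37 members passed (limma over all 10 arrays, adjusted p of at least 0.983), against 0% of 10109 genes (0.00989% with the culture number as a block, and no member), and 1 member, Ttk, had an unadjusted p under 0.05, against 3.54% of genes. The median log2 difference of siScramble over wt was 0.05 for replication and 0.28 for mitosis genes, against -0.00 for all genes. All 18 mitosis genes were above 0, from 0.14 to 0.41, and 12 of 19 replication genes, against 4922 of all 10109 genes. Plk1 had the largest value, 0.41 (standard error 0.22), followed by Ttk and Ccnb1, both at 0.36 (standard errors 0.12 and 0.19). Tk1 was the largest of the replication genes, at 0.25 (standard error 0.37). Without the individual arrays of number 3, and with the pooled arrays kept, the median of the mitosis genes was 0.16. By level, the mitosis mean of siScramble was above that of wt by 0.27, 0.01, 0.70 and 0.15 in numbers 1 to 4, and the replication mean by -0.18, 0.08, 0.36 and -0.09. Transfection reagent and siRNA came together in both siRNA conditions and cannot be told apart here.

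Of the genes outside the members, none of the 14 tested G1 regulators and none of the 11 genes of Cdk inhibition and arrest passed in either siFoxE1 comparison (limma). With an unadjusted p under 0.05 there were 2 G1 regulators and 4 genes of arrest vs siScramble, and 4 and 2 vs wt, where 16.5% and 21.1% of all genes had one. With the culture number as a block, 2 and 1 of them passed vs wt, against 10.6% of all genes, and 0 vs siScramble, against 0.445%. Ccnd1 was above its reference on all 10 arrays, with log2 ratios of 0.16, 0.31, 0.46 and 0.42 on arrays 1 to 4 and 0.21 on the pooled array vs siScramble and of 0.15, 0.32, 0.57 and 0.44 on arrays 1 to 4 and 0.42 on the pooled array vs wt. The fits gave 0.27 (standard error 0.08, adjusted p = 0.246) and 0.40 (standard error 0.09, adjusted p = 0.234). Cdkn1b was at 0.14 and 0.21 (standard errors 0.06 and 0.12), Cdkn1c at 0.00 and -0.01 and Myc at 0.04 and 0.21. Cdkn1a was at -0.12 and 0.03 (standard error 0.08 in both).

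Of the 37 members, 9 had 2 probes. Bub1 had a second probe above background in no channel, and the second probe of the other 8 differed by number too. Their log2 spans of 0.45 to 2.00 lay below those of the brightest probe, for example 1.52 against 2.45 for Rrm2 and 0.93 against 1.67 for Mcm4, whose second probes were dimmer. Ccna2, with 2 probes of like brightness, gave 1.95 and 1.85, and Mcm3 gave 2.03 and 2.00.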

How the data were processed

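Agilent rat arrays with 2 dyes, hybridized with RNA of PCCl3 cells, were scanned by the authors, who quantified the spots with Feature Extraction 10.7.3.1. The deposited spot intensity values were not normalized, and the median signals and local backgrounds were used because mean signals were not among the columns. The authors' deposited log2 ratio table, made with limma 3.2.3 per the submitters' processing notes, served as an alternative. The number of per-sample columns left unmapped was 0.

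Here the background was corrected by normexp with an offset of 50, each array was normalized by loess and the set of arrays by quantiles (limma 3.58.1 in R 4.3.3), control and outlier spots were left out, and spots of a probe were averaged. Probes well above background in at least 3 of 5 arrays in a channel were kept for a comparison, and in 8 of 16 channels for the culture number. Of 30367 probes, 17998 were named by accession, 113 through a table of the study, and 12256 not. A gene was represented by its brightest probe. Each siFoxE1 comparison was fitted on 5 arrays with a dye term (3 residual degrees of freedom), the indirect comparison on all 10, and the culture number on 12 culture values with condition as a term. The pooled array is a technical mix of the cultures, so that p-values rest partly on technical spread. P-values were adjusted by Benjamini-Hochberg over all probes tested, unnamed ones included, with a threshold of 0.05. These were 18135 probes vs siScramble, 18525 vs wt and 17568 for the culture number. The brightest probe of each gene was taken after the adjustment.

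The siFoxE1 extract of a number was on both of its arrays, and same-numbered wt and siScramble cultures deviated together (r = 0.741, 0.783, 0.113 and 0.681 for numbers 1 to 4, with 0.408 as the highest correlation of number 3 with another number), so that the numbers were taken to pair the cultures. The fits were tested on simulated data. The members and lists were chosen with earlier results of these data known. Values in every sample are given for set markers of each list, the members with the smallest p for number, and the largest change in each comparison. Alternatives covered the background correction, normalization, filter, dye term, pooled arrays, slide, block, probe choice and each replicate left out. A number left out of a comparison lost its individual arrays, while the pooled arrays stayed in the fit. Some marker genes are not reported here.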

Additional observations from a re-analysis of the deposited data

Results flagged for a closer look

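Of 185 groups of 4 cultures examined, 7 held a value set apart from the other 3 by Dixon's criterion, where chance flags about 1 in 20 groups. On the log2 ratio of siFoxE1 over siScramble, culture 1 stood below the others for Kif11 (-0.32, others 0.24 to 0.27) and Rrm2 (-0.33, others 0.44 to 0.51), and culture 2 above them for the dim Ccne2 (0.17, others -0.12 to -0.10). On the log2 ratio over wt, culture 3 stood above the others for Plk1 (0.89, others -0.26 to -0.15) and culture 1 below them for Tyms (-0.27, others 0.09 to 0.13). In wt, the log2 level in culture 2 stood above the others for Mcm2 (10.89, others 9.79 to 9.86) and Gins2 (7.85, others 7.02 to 7.12).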

How the results depend on the processing

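No called value changed sign, but medians near 0 did: vs siScramble that of the mitosis genes (-0.02) was 0.04 without number 1 and 0.12 with slide as a term, and that of the replication genes (0.08) was -0.02 on the first slide only. The indirect median of the replication genes (0.05) was -0.02 without number 3. Against wt, 1 member, Aurkb, was called with the replicate block (0.63, adjusted p = 0.0231) and 1 in the fit of all 10 arrays without the block (0.63, adjusted p = 0.0301), where its adjusted p ranged from 0.0231 to 0.516 over the alternatives. The pairing by block changed no other call of a member. The median span of the replication genes was 1.504 with Feature Extraction processed signals. With each number left out in turn, it ranged from 0.81 to 1.20 and that of the mitosis genes from 0.89 to 1.51, and 31 to 37 members were called. Ccnb1 missed the threshold without number 1 (adjusted p = 0.116) and Mcm2 without number 2 (adjusted p = 0.0945). The median log2 fold change of the mitosis genes ranged from 0.15 to 0.32 vs wt and from -0.06 to 0.04 vs siScramble.

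Over all genes, the calls vs siScramble were 14, but 0 with processed signals, 7 with an offset of 10, 8 without the filter, 5 without number 1, 25 without number 2 or on the first slide only, 44 with slide as a term, 45 with the block, 67 without it on all 10 arrays, 356 on individual arrays only and 509 without a dye term. Vs wt they were 3, but 0 with processed signals or without number 1 or 4, 1 with an offset of 10, 5 without the quantile step, 10 over all probes averaged, 25 without number 2, 47 without number 3, 140 on individual arrays only, 609 without a dye term, 1073 with the block and 1166 without it on all 10 arrays. Foxe1 missed the threshold with processed signals, an offset of 10 or number 1 left out in both comparisons, without the filter or on the first slide only vs siScramble, and without number 4 vs wt. For culture number the calls were 5759 of 9559, but 3350 without number 1 and 3289 without number 2. The number test without the wt value of number 3 was chosen after seeing the data.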
